A study of Homo sapiens with 6 samples.

Results

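Serine, glycine and proline are made inside the cell from intermediates of glycolysis and of glutamine breakdown. In the serine branch a glycolytic intermediate is oxidised by PHGDH, transaminated by PSAT1 and dephosphorylated by PSPH, and serine hydroxymethyltransferases then convert serine to glycine and pass a carbon to folate. In the proline branch ALDH18A1 reduces glutamate to an intermediate that PYCR1 turns into proline. Collagen is unusually rich in glycine and proline, so these enzymes supply cells that lay down scar matrix.

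The members described here were chosen by name: PHGDH, PSAT1, PSPH, SHMT1, SHMT2, MTHFD2, ALDH1L2, ALDH18A1 and PYCR1. All 9 were found once each among the 58735 genes of the count table, and all 9 passed the filter on low counts that left 17215 genes for testing. They were read in 6 RNA sequencing libraries of LX-2, an immortal human hepatic stellate cell line labelled as wild type. Each of the 6 libraries came from cells transfected with siRNA against NSUN2, an RNA methyltransferase, per the sample labels. The design text of the series instead gives NAT10 as what the siRNA targets, so its identity is in doubt; the sample labels were followed. The first group (3 libraries) had no further treatment in the labels, and the second (3 libraries) was given recombinant TGF-β1, the main fibrogenic cytokine of the liver, at 5 ng/ml for 24 hours, starting 48 hours after transfection. All groups therefore share the siRNA, the line is a single immortal line, and libraries lacking that siRNA are not part of the comparison. No time after transfection is recorded for the first group, so a difference in that time cannot be told apart from TGF-β1. The labels call replicates biological without naming separate cultures, so p-values measure the spread between these libraries.

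Libraries held 25828504 to 30034762 counts, and no pair of replicates looked like 1 library deposited again (chi-square per degree of freedom between replicates 3.66 to 4.86). NSUN2 stood at 81.4, 82.9 and 84.4 CPM without TGF-β1 and at 102.7, 97.0 and 101.9 CPM with it, where CPM is the count scaled to the TMM-adjusted library size. The labelled siRNA target was thus itself called higher with TGF-β1 (log2 fold change 0.28 ± 0.04, SE; edgeR adjusted p = 1.57e-06). Since no library lacking the siRNA is compared, the extent of knockdown cannot be read from these libraries. Of 15 stellate cell markers 11 were tested, with COL1A1 and VIM abundant; the quiescence marker LRAT was at 0 counts and DES had at most 6. The summed level of the stellate list was 2929 to 2975 CPM without TGF-β1 and 5898 to 6528 CPM with it, a difference carried mainly by COL1A1 and by TAGLN (93.8 and 468.4 CPM). Of the 11 tested, 6 were higher and 3 lower (median log2 fold change 0.08); the lower ones were ACTA2 (7.15 to 4.29 CPM), the smooth muscle actin used as a marker of activation, NGFR (11.2 to 6.74 CPM) and HAND2 (6.35 to 3.81 CPM). Hepatocyte markers summed to 21.3 to 27.4 CPM over all libraries, nearly all SERPINA1, with TTR, FGB and CYP3A4 at 0. Endothelial markers summed to 1.58 to 2.72 CPM, with LYVE1 and CLEC4G at 0. Leukocyte markers, nearly all CD14, summed to 8.11 to 10.5 CPM without TGF-β1 and 2.74 to 5.83 CPM with it, with VSIG4, CD3E and MS4A1 at 0. Cholangiocyte markers, mostly SOX9, summed to 71.0 to 72.7 and 56.8 to 58.5 CPM.

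The promoters of PSAT1 and SHMT1, members that both fell with TGF-β1, are shown as examples with more than 1 CCAAT box, the element bound by the factor NF-Y. MTHFD2, which rose, also held 2 (positions -184 and -74) and is not printed. RefSeq promoter windows matched 5 of the 9 members (PHGDH, PSAT1, SHMT1, MTHFD2 and ALDH18A1; GRCh38.p14). The stretches printed run 5′ to 3′ on the gene's strand, stop short of annotated exons, and have CCAAT or its reverse complement in capitals. The PSAT1 stretch is chr9:78297005-78297124 on the plus strand, ending at the base before the RefSeq start, and the SHMT1 stretch is chr17:18363564-18363683 on the minus strand, from position -133 to -14.
PSAT1: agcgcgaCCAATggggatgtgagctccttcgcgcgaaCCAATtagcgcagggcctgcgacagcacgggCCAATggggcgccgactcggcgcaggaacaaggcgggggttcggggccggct
SHMT1: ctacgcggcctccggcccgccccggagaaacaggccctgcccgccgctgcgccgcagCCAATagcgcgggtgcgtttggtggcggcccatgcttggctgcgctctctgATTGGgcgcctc

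In the 250 bases before the start, searched on both strands, CCAAT was found 3 times in PSAT1, 2 times each in SHMT1 and MTHFD2, once in PHGDH (position -71) and not in ALDH18A1. It occurs at least once in 32% of the 35116 RefSeq windows of that length, and the share with more than 1 match is not given here. The match was thus present in members that fell (PHGDH, PSAT1, SHMT1) and in MTHFD2, which rose. The sequence TGATGNAA, the core of the element bound by the stress factor ATF4, was in 3.14% of windows and in none of these 5. The E-box CACGTG was in 6.34% of windows and, of the 5, in ALDH18A1 at position -136. The AP-1 sequence TGANTCA (6.57% of windows) and the SMAD box GTCTAGAC (0.182%) were in none of the 5, the SMAD half-site CAGACA (13.6%) was in MTHFD2, and the GC box GGGCGG (42.6%) was in PSAT1 and SHMT1. A match describes the letters of these windows and no more.

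Setting the libraries with TGF-β1 against those without shows how the transcripts of these enzymes stood when the cells were pushed towards matrix production. The entry enzymes of serine synthesis, PHGDH and PSAT1, fell by 0.39 and 0.35 on the log2 scale, and the cytosolic SHMT1 fell by 0.22. The mitochondrial folate enzymes ALDH1L2 and MTHFD2 rose 2.05-fold and 1.27-fold, and the proline enzyme PYCR1 rose 1.19-fold. SHMT2, ALDH18A1 and PSPH were not called. In edgeR's quasi-likelihood test with Benjamini-Hochberg adjustment over all 17215 genes, 3 members were thus higher, 3 lower and 3 not called at an adjusted p under 0.05.

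The share of all tested genes called was 38.9%, with 20.2% called higher (3471 genes) and 18.7% lower (3226 genes). The members' groups did not overlap for 6 of 9, against 47.4% of all tested genes. The median log2 fold change was -0.01 over the members, as over all tested genes, and the median absolute value was 0.25 against 0.22. In size and in the split of directions, then, the enzymes were near all tested genes, and whether direction differs by step was not tested. Scaling by library totals alone moved the median of all genes from -0.01 to -0.13 and gave 2019 higher and 5354 lower genes, and the call for PYCR1 was lost there (adjusted p = 0.130). In bulk RNA, fewer cells with a transcript and less transcript per cell cannot be told apart.

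**Figure D1:**
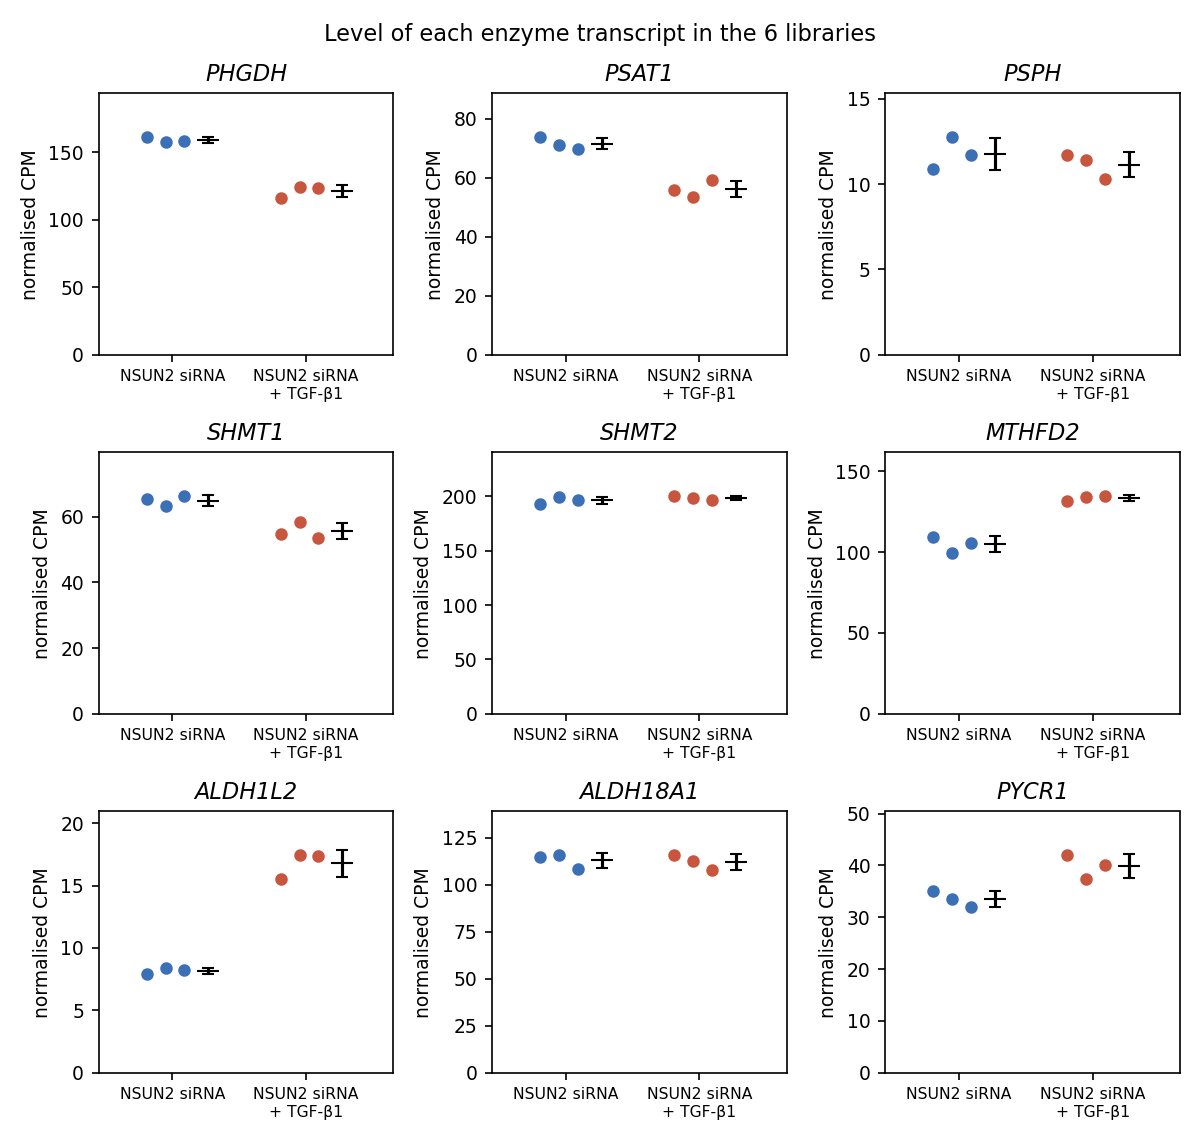
Each panel plots 1 enzyme: points are the 6 libraries (blue without TGF-β1, red with it), the vertical axis is normalised CPM from 0, and the black mark is the mean ± SD of 3 libraries. The groups separate downwards for PHGDH, PSAT1 and SHMT1, separate upwards for MTHFD2, ALDH1L2 and PYCR1, and overlap for PSPH, SHMT2 and ALDH18A1.

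PHGDH encodes phosphoglycerate dehydrogenase, which commits carbon to serine (ENSG00000092621, chromosome 1, 119648411 to 119744226, plus strand, hg38). Its level was 161.3, 157.6 and 158.5 CPM without TGF-β1 and 115.8, 124.2 and 123.9 CPM with it. Every TGF-β1 library lay below every untreated one, and the gap between the groups was wider than the range within either. With means of 159.1 ± 1.94 and 121.3 ± 4.76 CPM (SD, n = 3), the log2 fold change was -0.39 ± 0.04 (SE; edgeR adjusted p = 2.79e-11).

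PSAT1, the aminotransferase of the following step (ENSG00000135069, chromosome 9, 78297143 to 78330093, plus strand), was measured at 73.8, 71.1 and 69.9 CPM without TGF-β1 and at 55.8, 53.5 and 59.1 CPM with it. The groups again did not overlap, with the highest treated library being replicate 3. The log2 fold change was -0.35 ± 0.05 (SE; edgeR adjusted p = 3.70e-07). The 4 annotated pseudogene copies of PSAT1 had at most 4 counts in any library.

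PSPH, the phosphatase that releases serine (ENSG00000146733, chromosome 7, 56011051 to 56051604, minus strand), was at 10.9, 12.8 and 11.7 CPM without TGF-β1 and at 11.7, 11.4 and 10.3 CPM with it. These ranges overlap. The log2 fold change of -0.08 was not called (edgeR adjusted p = 0.632), and its 95% interval of -0.31 to 0.15 includes a fall of the size seen for SHMT1. Only the PHGDH and PSAT1 steps of the 3-step serine branch were therefore called lower, and whether PSPH differs from them was not tested.

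SHMT1 and SHMT2 encode the cytosolic and mitochondrial serine hydroxymethyltransferases. SHMT1 (ENSG00000176974, chromosome 17, 18327860 to 18363563, minus strand) was at 65.4, 63.1 and 66.3 CPM without TGF-β1 and at 54.7, 58.4 and 53.6 CPM with it. All treated libraries were lower, with a log2 fold change of -0.22 ± 0.05 (SE; edgeR adjusted p = 5.97e-04). Other annotated genes, mainly SMCR8, cover 3.69% of its exonic bases, and SMCR8's own log2 fold change of -0.07 was not called (edgeR adjusted p = 0.243).

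SHMT2 (ENSG00000182199, chromosome 12, 57229327 to 57234935, plus strand) was at 192.7, 199.9 and 196.3 CPM without TGF-β1 and at 200.4, 198.2 and 196.5 CPM with it. The groups overlapped. Its log2 fold change was 0.01, with a 95% interval of -0.06 to 0.08 (edgeR adjusted p = 0.783), and it turned to -0.10 and was called lower (adjusted p = 0.0133) when libraries were scaled by totals alone. Whether SHMT1 and SHMT2 differ was tested only through their ratio, given further on.

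MTHFD2 encodes the mitochondrial dehydrogenase and cyclohydrolase that oxidises the carbon taken from serine, and it is known as an enzyme of embryonic and proliferating cells (ENSG00000065911, chromosome 2, 74198562 to 74217565, plus strand). It was at 109.3, 99.7 and 105.6 CPM without TGF-β1 and at 131.4, 134.1 and 134.6 CPM with it. The treated libraries lay close together and above all untreated ones. The log2 fold change was 0.35 ± 0.04 (SE; edgeR adjusted p = 3.36e-09). Other annotated genes cover 33.2% of its exonic bases, but none of them had more than 17 counts in a library, and its 7 pseudogene copies had at most 8.

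ALDH1L2, a mitochondrial enzyme that oxidises formyl-folate and yields NADPH (ENSG00000136010, chromosome 12, 105019784 to 105084577, minus strand), showed the largest change of the 9. Libraries without TGF-β1 held 7.93, 8.40 and 8.21 CPM and libraries with it 15.5, 17.4 and 17.4 CPM. Every treated library lay far above every untreated one. The log2 fold change was 1.04 ± 0.11 (SE; edgeR adjusted p = 1.48e-10), at percentile 96.6 of all tested genes. It came out at 0.59 on the log2(FPKM + 1) scale, since a pseudocount of 1 is as large as the FPKM of this gene. The opposite-strand gene C12orf45 shares 1.7% of its exonic bases and rose as well, by 0.46 on the log2 scale; whether counting used strand is not given.

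ALDH18A1, the enzyme that starts proline synthesis from glutamate (ENSG00000059573, chromosome 10, 95605929 to 95656706, minus strand), was at 114.7, 115.5 and 108.2 CPM without TGF-β1 and at 115.7, 112.7 and 107.7 CPM with it. The groups overlapped over nearly their whole range. The log2 fold change was -0.01, with a 95% interval of -0.10 to 0.08 (edgeR adjusted p = 0.881), and it was -0.13 and called lower (adjusted p = 0.0118) with library totals alone.

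PYCR1, the mitochondrial reductase that completes proline synthesis (ENSG00000183010, chromosome 17, 81932384 to 81942412, minus strand), was at 34.99, 33.6 and 32.02 CPM without TGF-β1 and at 42.0, 37.4 and 40.1 CPM with it. The groups did not overlap, with TGF-β1 replicate 2 nearest to the untreated libraries. The log2 fold change was 0.25 ± 0.07 (SE; edgeR adjusted p = 0.00289). Other annotated genes cover 29.7% of its exonic bases and had at most 1 count.

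**Figure D2:**
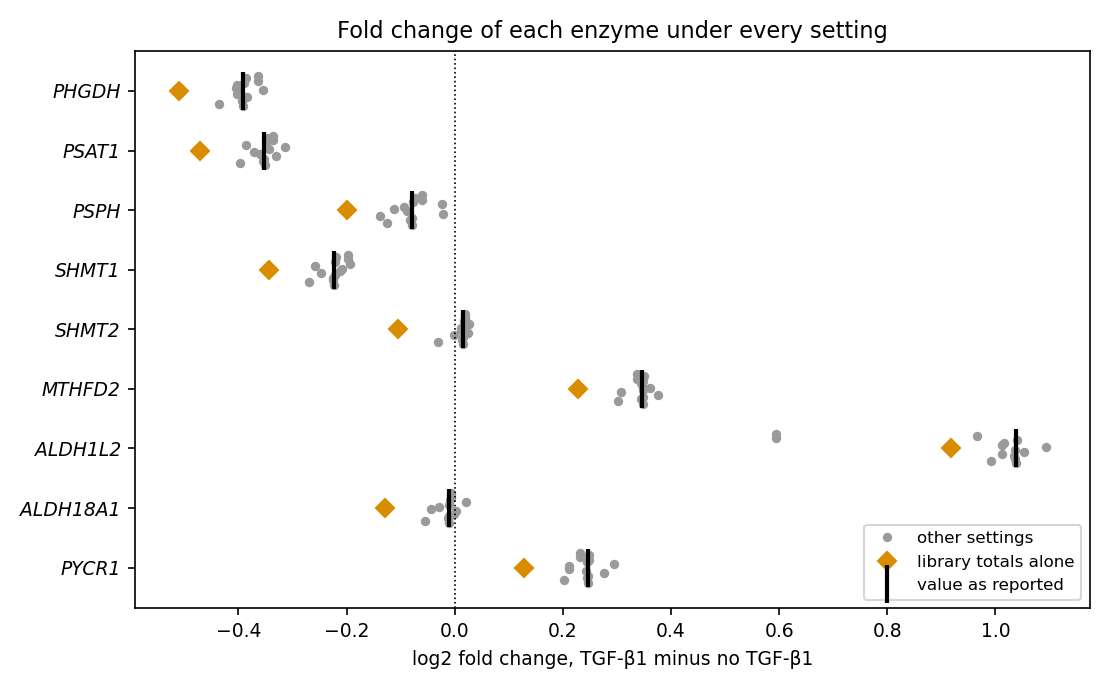
The horizontal axis is the log2 fold change of each enzyme; the black bar is the value as reported, grey points are the other settings and the orange diamond is scaling by library totals alone. PHGDH, PSAT1 and SHMT1 stay below 0 and MTHFD2, ALDH1L2 and PYCR1 above 0 under all 15 alternatives, whereas SHMT2 and ALDH18A1 lie on both sides of 0; the 2 grey points near 0.59 for ALDH1L2 are the fits with a pseudocount of 1.

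Levels can be compared between genes only per length, and for this the deposited FPKM (fragments scaled by gene length and library size) were used. That length equals all annotated exonic bases of a gene together (9217 for PHGDH, 2188 for PSAT1), not the length of the transcripts present. The order in FPKM therefore depends on the annotation. By CPM without TGF-β1, PHGDH (159.1) stood above PSAT1 (71.6). Without TGF-β1 the order was SHMT2 (39.4 ± 0.63 FPKM; SD, n = 3), PSAT1 (31.8 ± 0.96), ALDH18A1 (29.1 ± 1.06), MTHFD2 (20.9 ± 1.02), PHGDH (16.8 ± 0.25), PYCR1 (11.3 ± 0.52), SHMT1 (8.65 ± 0.23), PSPH (4.14 ± 0.32) and ALDH1L2 (0.933 ± 0.025). No neighbours in that order overlapped over the 3 libraries. With TGF-β1, PSAT1 (24.96 ± 1.29 FPKM) passed below ALDH18A1 (28.9 ± 1.00) and MTHFD2 (26.6 ± 0.37), and the libraries of MTHFD2 and PSAT1 overlapped. PYCR1 (13.4 ± 0.79 FPKM) and PHGDH (12.8 ± 0.51) also overlapped with TGF-β1. SHMT2 kept the highest value at 39.9 ± 0.34 FPKM, and ALDH1L2 the lowest at 1.92 ± 0.13 FPKM.

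Ratios of sister enzymes within a library do not depend on how libraries are scaled. The size of a ratio does depend on the annotated lengths (4838 bases for SHMT2, 7281 for SHMT1). Only its change between the groups is free of them. Of 4 pairs computed, 3 are described. SHMT2 exceeded SHMT1 4.44-, 4.77- and 4.46-fold in FPKM without TGF-β1 and 5.51-, 5.11- and 5.52-fold with it. The mitochondrial MTHFD2 stood at 0.690, 0.604 and 0.681 of the cytosolic MTHFD1, a trifunctional folate enzyme, without TGF-β1 and at 0.897, 0.866 and 0.862 with it. ALDH1L2 exceeded its cytosolic sister ALDH1L1 12.5-, 15.9- and 12.4-fold without TGF-β1 and 41.3-, 22.4- and 33.0-fold with it, where ALDH1L1 rested on 15 to 36 counts per library.

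In these 3 pairs the treated libraries all lay above the untreated ones. The mean log2 ratio was higher by 0.24 for SHMT2 to SHMT1, by 0.41 for MTHFD2 to MTHFD1 and by 1.21 for ALDH1L2 to ALDH1L1. Each pair gave p = 0.1 in a two-sided exact permutation test (adjusted over the 4 pairs computed, also 0.1), the smallest value that 3 against 3 libraries can give, so none passes 0.05. MTHFD1 itself had a log2 fold change of -0.07 and was not called (edgeR adjusted p = 0.131), although with library totals alone it was called lower at -0.18.

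**Figure D3:**
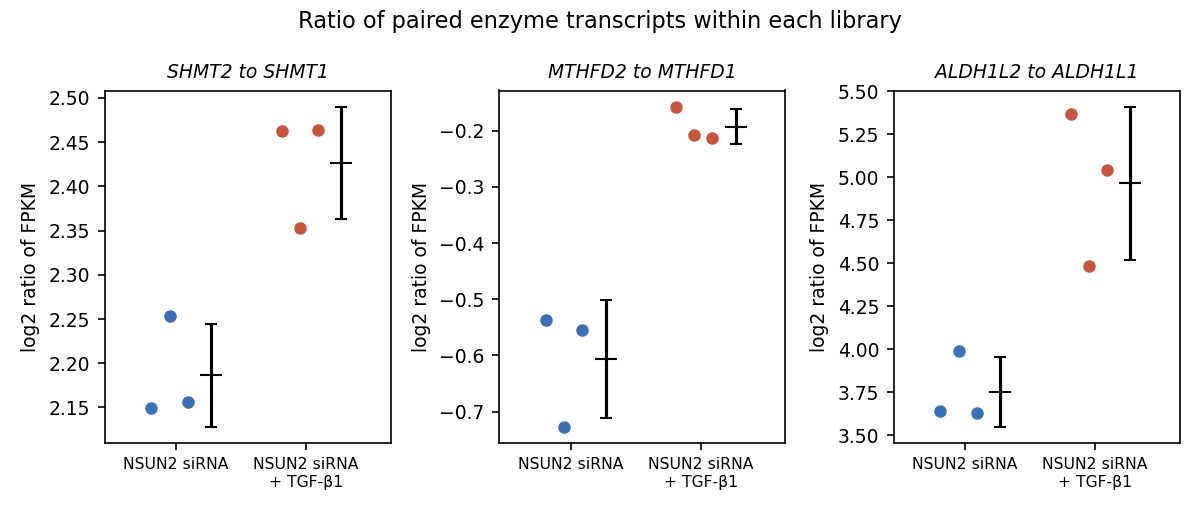
Each panel plots the log2 ratio of FPKM of 2 enzymes within a library, with points for the 6 libraries (blue without TGF-β1, red with it) and the mean ± SD of 3 in black; the vertical axes are cropped and differ between panels. In all 3 pairs the red points lie above the blue ones.

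Other enzymes of folate metabolism were called higher in 5 and lower in 4 of 18 tested cases, with a median log2 fold change of 0.00. The mitochondrial formate-releasing enzyme MTHFD1L rose from 61.9 ± 2.41 to 92.5 ± 1.46 CPM (SD, n = 3). Its log2 fold change was 0.58 ± 0.05 (SE; edgeR adjusted p = 1.27e-13). It thus rose alongside MTHFD2 and ALDH1L2, whereas MTHFD2L, the minor mitochondrial relative of MTHFD2, fell by 0.76 ± 0.16 from 7.73 to 4.57 CPM, a call that was lost with limma on FPKM (-0.65 with a pseudocount of 0.1). The purine synthesis enzymes ATIC, PAICS and GART, which use or follow folate-borne formyl groups, had log2 fold changes of 0.24, 0.23 and 0.20, and the methionine synthase reductase MTRR one of 0.17. The thymidylate synthase TYMS had a log2 fold change of -0.39, and the folate hydrolase GGH one of -0.22. The purine enzymes, MTRR, TYMS and GGH, and the further genes given for small counts in the lists below, were picked once their values were known.

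In the list of glycine cleavage and serine or glycine use, 5 of 20 tested genes were called higher and 5 lower (median -0.03). The list also holds neighbouring steps of glutathione and creatine synthesis that do not use serine or glycine themselves, such as GCLM, GCLC and GAMT. CBS, which joins serine to homocysteine, was at 6.52, 4.43 and 4.32 CPM without TGF-β1 and 12.0, 11.8 and 17.2 CPM with it. Its near-identical copy CBSL takes a varying part of these reads (44 to 285 counts per library), so the log2 fold change of 1.42 is uncertain; the sum of both was 9.58 ± 4.43 CPM without TGF-β1 and 21.3 ± 6.31 CPM with it. GCLM, the modifier subunit of the first glutathione enzyme, rose by 0.82 ± 0.06 (SE). The catalytic subunit GCLC had a log2 fold change of 0.18, the sphingolipid enzyme SPTLC2 and the phosphatidylserine synthase PTDSS1 of 0.26 each. Lower were GAMT, of creatine synthesis, (-0.83 ± 0.14, SE), and SPTLC3 (-2.39), the glycine decarboxylase GLDC (-0.91), GCAT (-0.30) and the glutathione synthetase GSS (-0.18); SPTLC3 and GLDC were under 5 CPM.

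Around proline, 2 of 13 other tested enzymes of proline, glutamate and aspartate metabolism were higher and 3 lower (median -0.10). The alanine aminotransferase GPT2, at a log2 fold change of 0.15, lost its call without untreated replicate 1 or without TGF-β1 replicate 1. Lower were PEPD, which frees proline from dipeptides during collagen turnover (-0.50 ± 0.04, SE), ALDH4A1, of proline breakdown (-0.47 ± 0.10), and the glutamate dehydrogenase GLUD1 (-0.10). The proline oxidase PRODH had at most 2 counts in a library and was not tested. ASNS, the asparagine synthetase, had 9 to 34 counts and a log2 fold change of -0.40 ± 0.47 (edgeR adjusted p = 0.547), and OAT, which makes the same intermediate as ALDH18A1 from ornithine, had one of -0.07 (edgeR adjusted p = 0.212).

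**Figure D4:**
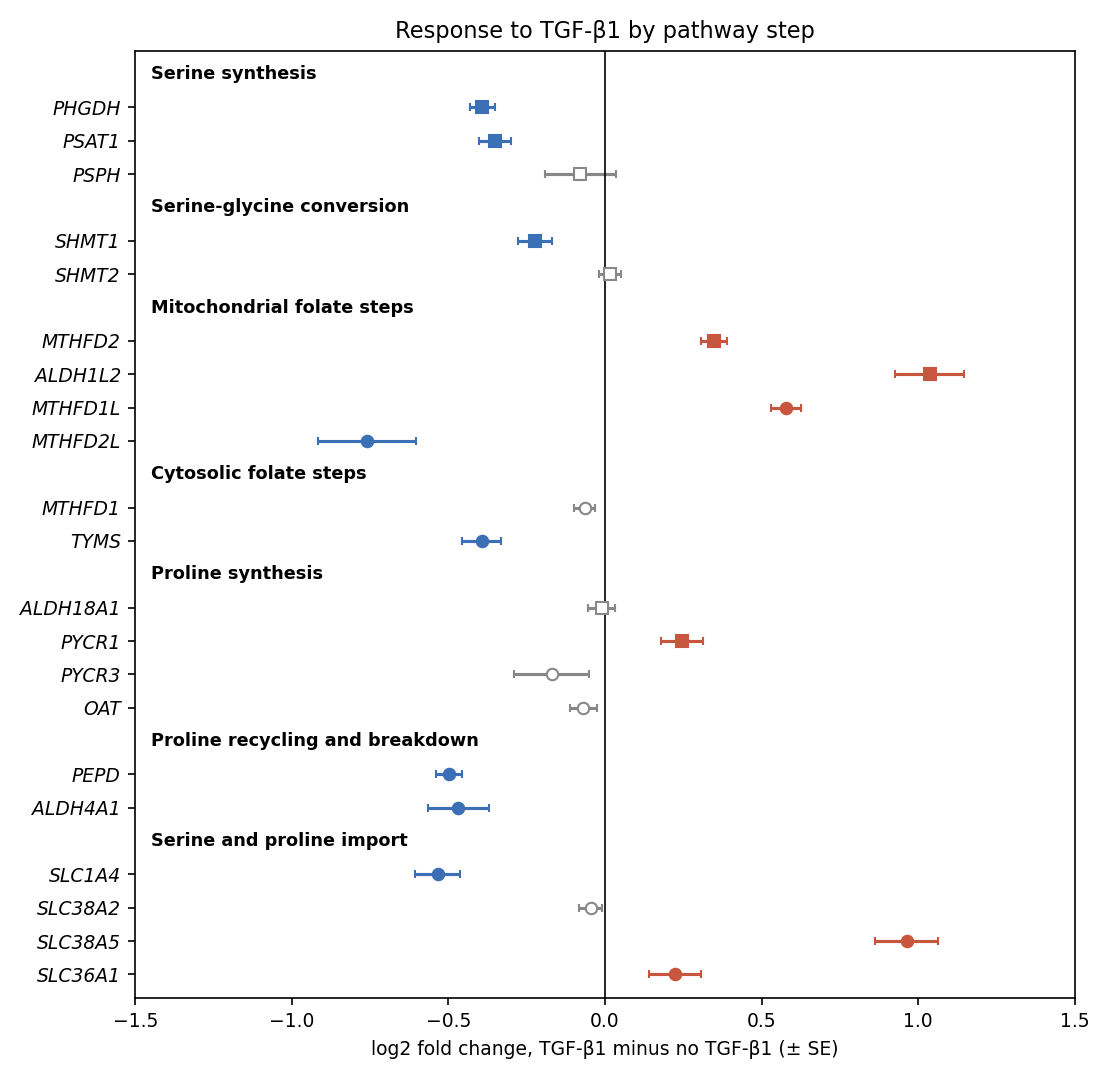
The horizontal axis is the log2 fold change with TGF-β1 (± SE) and the rows group genes by step; squares are the 9 enzymes and circles other genes of the pathway lists, filled red or blue where called higher or lower and open where not called. The serine synthesis squares lie at or below 0, with PHGDH at -0.39. Of the mitochondrial folate steps, MTHFD2, ALDH1L2 and MTHFD1L lie at 0.35, 1.04 and 0.58, while MTHFD2L lies at -0.76.

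Amino acid transporters were called higher in 6 and lower in 4 of 16 cases (median 0.04). SLC1A4, a carrier of serine and other small neutral amino acids, was at 35.0, 34.5 and 37.3 CPM without TGF-β1 and 25.1, 25.3 and 23.3 CPM with it, a log2 fold change of -0.53 ± 0.07 (SE; edgeR adjusted p = 6.06e-08). SLC38A5, which carries glutamine, serine and glycine, rose by 0.96 ± 0.10 from 10.5 to 20.4 CPM, and the large neutral amino acid transporter SLC7A5 rose by 0.60 ± 0.07. The cystine exchanger SLC7A11 fell by 1.23 on the log2 scale. The other transporters called lower were SLC38A1 (-0.17) and the mitochondrial glutamate carrier SLC25A22 (-0.18). The others called higher were SLC43A2 (0.35), SLC7A1 (0.31, from 725.9 to 902.6 CPM), SLC36A1 (0.22) and SLC1A5 (0.18).

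PHGDH, PSAT1, SHMT2, MTHFD2 and ALDH1L2 are textbook targets of ATF4, the transcription factor of the integrated stress response. ATF4 transcript was at 187.1, 191.8 and 187.3 CPM without TGF-β1 and at 231.9, 240.4 and 237.9 CPM with it, a log2 fold change of 0.33 ± 0.03 (SE; edgeR adjusted p = 1.11e-10). Among 26 tested genes of the list of stress response and ATF4 targets, 7 were higher and 9 lower, with a median of 0.06. STC2 fell by 0.68 ± 0.04, the stress factor DDIT3 by 0.57 ± 0.11 and TRIB3 by 0.31 ± 0.06, while HERPUD1 rose by 0.47 ± 0.06. The others called higher were ATF4 itself, CEBPG (0.33), ATF3 (0.31), GARS (0.23), XPOT (0.16) and EIF4EBP1 (0.13). Also called lower were GDF15 (-1.40, from 5.63 to 2.12 CPM), PPP1R15A (-0.45), VLDLR (-0.42), ATF5 (-0.26) and the kinase genes EIF2AK2 and EIF2AK4 (-0.18 each). The list thus mixes targets with ATF4 itself and kinase genes. Whether ATF4 accounts for any of these changes was not tested, and ATF4 protein, which is controlled mainly through translation, was not measured.

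The need for these amino acids was not measured, and only the transcripts of collagen chains were read. Of 24 tested collagen chain genes, 15 were higher and 5 lower (COL12A1, COL8A1, COL4A5, COL4A6 and COL13A1), with a median of 0.59. COL1A1 went from 1418 ± 6.14 to 3993 ± 318.6 CPM (SD, n = 3), or 1.49 on the log2 scale, against 1.04 for the member that rose most. COL1A2, the other chain of type I collagen, was also called higher but was scarce, at 1.30 CPM without TGF-β1 and 3.18 CPM with it. COL4A1 rose by 2.07 and COL27A1 by 2.41, and COL4A6 fell by 2.23. The last 3 are named for the size of their change. Other abundant chains differed in the size and direction of their change. Log2 fold changes were 0.27 for COL6A1, 0.41 for COL6A2 and 0.44 for COL5A2. They were 1.81 for COL5A1, 1.72 for COL6A3 and 1.28 for COL4A2, while COL12A1 stood at -0.81. These chains were chosen after their values were seen.

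For each member the nearest gene among 11133 others with at least 5 CPM was found by the root mean square difference of log2 CPM, centred over the 6 libraries. These were SMARCA2 for PHGDH (0.013), PXMP4 for PSAT1 (0.021), DIP2A for PSPH (0.026), TWSG1 for SHMT1 (0.021), DNAJB1 for SHMT2 (0.010), MTDH for MTHFD2 (0.013), OCIAD2 for ALDH1L2 (0.034), ALKBH5 for ALDH18A1 (0.013) and RABL3 for PYCR1 (0.020). No member had another member as its nearest gene. With 2 groups this measure follows mostly the size of the TGF-β1 change: MTDH, for example, had a log2 fold change of 0.34 beside 0.35 for MTHFD2, and OCIAD2 one of 0.99 beside 1.04 for ALDH1L2.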

How the data were processed

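The deposited count table holds whole-number read counts per gene, and the deposited FPKM table the authors' values scaled by gene length and library size. The tools fastp and HISAT2 2.2.1 and build hg38 are credited to the submitters' processing notes; how reads were counted, with what strand setting and annotation, is not given in the sources. A further 6 columns of each file had names of no listed sample and were left unused. Libraries were grouped by their treatment label. Counts were tested with edgeR 4.0.16 (filterByExpr at minimum count 10 and minimum total 15, TMM, robust glmQLFit, glmQLFTest, two-sided, Benjamini-Hochberg over 17215 genes, threshold 0.05, group the only term). SE is the absolute log2 fold change over the square root of F. Members had 230 to 6091 counts per library, and the SE covers both counting error and the spread between replicates. Exons were taken from GENCODE release 29. Sister ratios used FPKM and exact permutation tests (scipy 1.17.1).

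Genes named were the 9 members; up to 3 called genes per list with the largest change and a mean of at least 5 CPM; ATF4, ASNS, MTHFD1, MTHFD1L, PRODH, SLC1A4, COL1A1 and NSUN2; and each member's nearest gene; a few further genes of this rule are not reported here. Members, lists and motifs were chosen with earlier results of these data known. The fit was tested on simulated data. Alternatives were other scalings, no filter, DESeq2 1.42.0, limma 3.58.1 on log2 FPKM, a replicate block and leaving out each library.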

Additional observations from a re-analysis of the deposited data

How the results depend on the processing

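The calls of PHGDH, PSAT1, SHMT1, MTHFD2 and ALDH1L2 kept their direction and their side of the threshold under all 15 alternatives of the fit, and PSPH stayed uncalled; PYCR1, SHMT2 and ALDH18A1 changed with library totals alone. With library totals alone, 2019 genes were higher and 5354 lower, 5 members were lower (SHMT2 at -0.10 and ALDH18A1 joined), and PYCR1 lost its call at 0.13. Under that scaling the other folate enzymes gave 3 higher and 7 lower, the proline, glutamate and aspartate enzymes 1 and 8, 7 transporters were lower, 4 stress response genes were higher, and DNAJB1 turned to -0.12. Upper-quartile factors left 1 of the proline, glutamate and aspartate enzymes higher. limma on log2 FPKM without a filter called 1881 genes lower. It gave 2 folate enzymes, 2 transporters and 3 genes of the list of glycine and serine use lower. It gave 3 stress response genes and 1 proline, glutamate or aspartate enzyme higher. With a minimum mean of 0.5 FPKM, limma left 2 genes of the list of glycine and serine use lower at either pseudocount. The filter also removes low genes. Leaving out a library each time gave 1 to 2 higher proline, glutamate and aspartate enzymes, 3089 to 3366 higher genes and 2850 to 3009 lower genes, with 3 members higher and 3 lower each time. The replicate numbers did not pair the libraries (correlations of same-numbered deviations of -0.00, 0.01 and -0.01); with the replicate block, 3431 genes were higher and 3182 lower, and no call of a named gene changed. The planned weighting by encoded amino acids was not run, since no protein table was used here. PRODH and ALDH1L1 rest on too few counts for small changes to be detectable.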
